A study of Homo sapiens with 12 samples.

Results

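The origin licensing genes examined here were MCM2, MCM3, MCM4, MCM5, MCM6 and MCM7, which encode the subunits of the replicative helicase, together with MCM10, CDC6, CDT1 and GMNN. They were taken by name from the array's own annotation and are 10 of its 29123 gene names. The array measured them with 12 of its 41000 gene probes, because MCM10 and CDT1 had 2 probes each. HuH-7 is a cell line from a human hepatocellular carcinoma, with the Y220C mutant of p53 in every group, and its cells received the solvent DMSO, 28 µM SLMP53-2 or 42 µM SLMP53-2 for 24 h. SLMP53-2 is a small molecule that the study tested as a reactivator of mutant p53, and the doses are 2 and 3 times its IC50, a measure of the dose that inhibits growth. Each group had 4 biological replicates, each on a 1-colour Agilent array, 12 arrays in all on 5 slides. Part of the labels gives 48 µM for the group that is called 42 µM here. All measurements come from a single cell line, in which the cells were not sorted by cell cycle phase.

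Before a cell replicates its DNA, the origin recognition complex marks the origins, and CDC6 and CDT1 load the ring of MCM2 to MCM7 onto the DNA there, a step called licensing that takes place between mitosis and the start of S phase. Geminin, the product of GMNN, binds CDT1 during S and G2 phase and so stops origins from being licensed again. At the start of S phase, MCM10, CDC45 and the GINS complex turn the loaded ring into a working helicase. Many of these genes are transcribed from late G1 phase under E2F transcription factors. Resting hepatocytes make little of their RNA, whereas proliferating hepatoma cells make it in each cell cycle.

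The promoters of the 3 genes called lower at 42 µM, MCM6, MCM10 and GMNN, are shown with that of CDC6, the gene that spread most at 28 µM, so that the E2F words in them can be seen. The sequences are RefSeq windows of GRCh38.p14 with 250 bases before and 50 bases after the transcription start, written 5′ to 3′ on the strand of the gene. The windows are chr2:135876394-135876693 on the minus strand for MCM6, and on the plus strand chr10:13161308-13161607 for MCM10, chr6:24775163-24775462 for GMNN and chr17:40287629-40287928 for CDC6. The GMNN window is that of the second of its 2 annotated starts. Capitals mark the E2F octamers TTTGGCGC, TTTCCCGC, TTTGCCGC and TTTCGCGC on either strand.
MCM6: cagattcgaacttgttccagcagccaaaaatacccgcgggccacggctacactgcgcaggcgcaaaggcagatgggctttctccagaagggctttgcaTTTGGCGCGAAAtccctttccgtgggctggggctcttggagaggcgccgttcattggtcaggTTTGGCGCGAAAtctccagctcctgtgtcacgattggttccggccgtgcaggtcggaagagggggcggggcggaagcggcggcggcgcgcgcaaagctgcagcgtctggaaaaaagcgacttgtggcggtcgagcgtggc
MCM10: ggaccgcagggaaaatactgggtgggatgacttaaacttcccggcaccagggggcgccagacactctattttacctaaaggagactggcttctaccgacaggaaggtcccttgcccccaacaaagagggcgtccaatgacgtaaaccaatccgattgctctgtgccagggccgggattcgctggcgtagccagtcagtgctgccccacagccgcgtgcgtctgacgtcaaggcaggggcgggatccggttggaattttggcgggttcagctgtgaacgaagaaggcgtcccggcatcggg
GMNN: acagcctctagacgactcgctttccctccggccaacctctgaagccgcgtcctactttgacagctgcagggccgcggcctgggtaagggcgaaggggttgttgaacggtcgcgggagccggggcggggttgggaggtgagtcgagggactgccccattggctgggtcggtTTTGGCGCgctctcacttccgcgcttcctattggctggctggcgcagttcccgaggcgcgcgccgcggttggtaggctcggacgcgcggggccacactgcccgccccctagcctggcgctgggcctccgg
CDC6: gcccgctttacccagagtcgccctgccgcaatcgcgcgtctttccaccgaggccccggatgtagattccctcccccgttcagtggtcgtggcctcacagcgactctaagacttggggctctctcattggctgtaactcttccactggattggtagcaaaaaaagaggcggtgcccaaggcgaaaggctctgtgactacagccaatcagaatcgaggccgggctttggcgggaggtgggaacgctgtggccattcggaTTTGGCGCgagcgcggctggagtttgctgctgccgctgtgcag

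The MCM6 promoter held 4 octamers, in 2 runs where words of both strands overlap, and these runs began 152 and 90 bases before the start. GMNN had 1 octamer in this window and none in the window of its first start, CDC6 had 1 just after its start, and none of the 4 octamers was in the MCM10 window. Other E2F-like words were not marked, so this does not mean that MCM10 lacks E2F sites. CCAAT boxes were in all 4 windows shown, with 2 in MCM6, 2 in MCM10 and 3 in CDC6. Over the members, 7 of the 8 with a promoter in the table had an octamer in at least 1 window, whereas 3.99% of the 27305 genes of the table did. Counted by window, 7 of the members' 11 windows and 3.315% of all 35116 windows held one. The CCAAT box, the word CCAAT on either strand, was in a window of 6 of the 8 members and of 39.7% of all genes, and the CHR words TTTGAA and TTCGAA were in 1 of the 8 and in 19.5% of all genes. Of the other 32 licensing and firing genes with a window, described at the end, 11 held an octamer. The 8 are the members other than MCM4 and MCM5. These matches describe letters in a window and were not measured as binding.

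All 12 probes were well above background on all 12 arrays, so each level below is a measured one. A level is the log2 of a probe's background-corrected and quantile-normalized intensity, and levels of different probes were not set against each other. A gene was called when its brightest probe changed by at least 0.6 on the log2 scale with a Benjamini-Hochberg adjusted p below 0.05 in limma over all probes tested. Between 65.0% and 85.0% of an array's gene spots were above background, with the highest shares on 28 µM replicates 1 (85.0%) and 4 (83.4%). Of 11 hepatocyte and hepatoma markers, 10 were above background on every array and 0 were called at either dose. Of 8 leukocyte, endothelial and fibroblast markers 3 were above background on every array. The 3 include the fibroblast collagen gene COL1A2, at a mean level of 10.13 on DMSO. For all 8 together, the log2 of the summed intensities was 10.74 to 10.88 for DMSO. It was 10.65 to 10.90 for 28 µM and 10.69 to 10.78 for 42 µM. The arrays of a treated group did not lie close together for the licensing genes. At 28 µM replicate 4 lay within or above the DMSO range for 9 of the 10 genes, and at 42 µM replicates 1 and 2 lay below replicates 3 and 4 for all 10, and the results below are therefore also given by array and without single arrays.

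At 42 µM all 10 licensing genes had a lower mean level than the DMSO group. The median of their log2 fold changes was -0.73, and they ranged from -0.94 for MCM10 to -0.55 for CDT1. MCM6, MCM10 and GMNN fell past both limits, 3 of 10 genes, against 1.43% of the 24251 genes tested, and 0 of the 10 were called higher, against 1.57% of all genes. Without adjustment 7 of the 10 had a p below 0.05 and a fall of at least 0.6, against 2.4% of all genes. MCM2, MCM7 and CDT1 fell by less than 0.6, and the unadjusted p of MCM2 was 0.0770. In 7 of the 10 all 4 arrays of the dose lay below all 4 DMSO arrays, as in 7.01% of all genes. The median over all genes tested was -0.02. In RNA from whole cultures, fewer cells in the phases that make these transcripts and less RNA in each cell cannot be told apart.

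**Figure D1:**
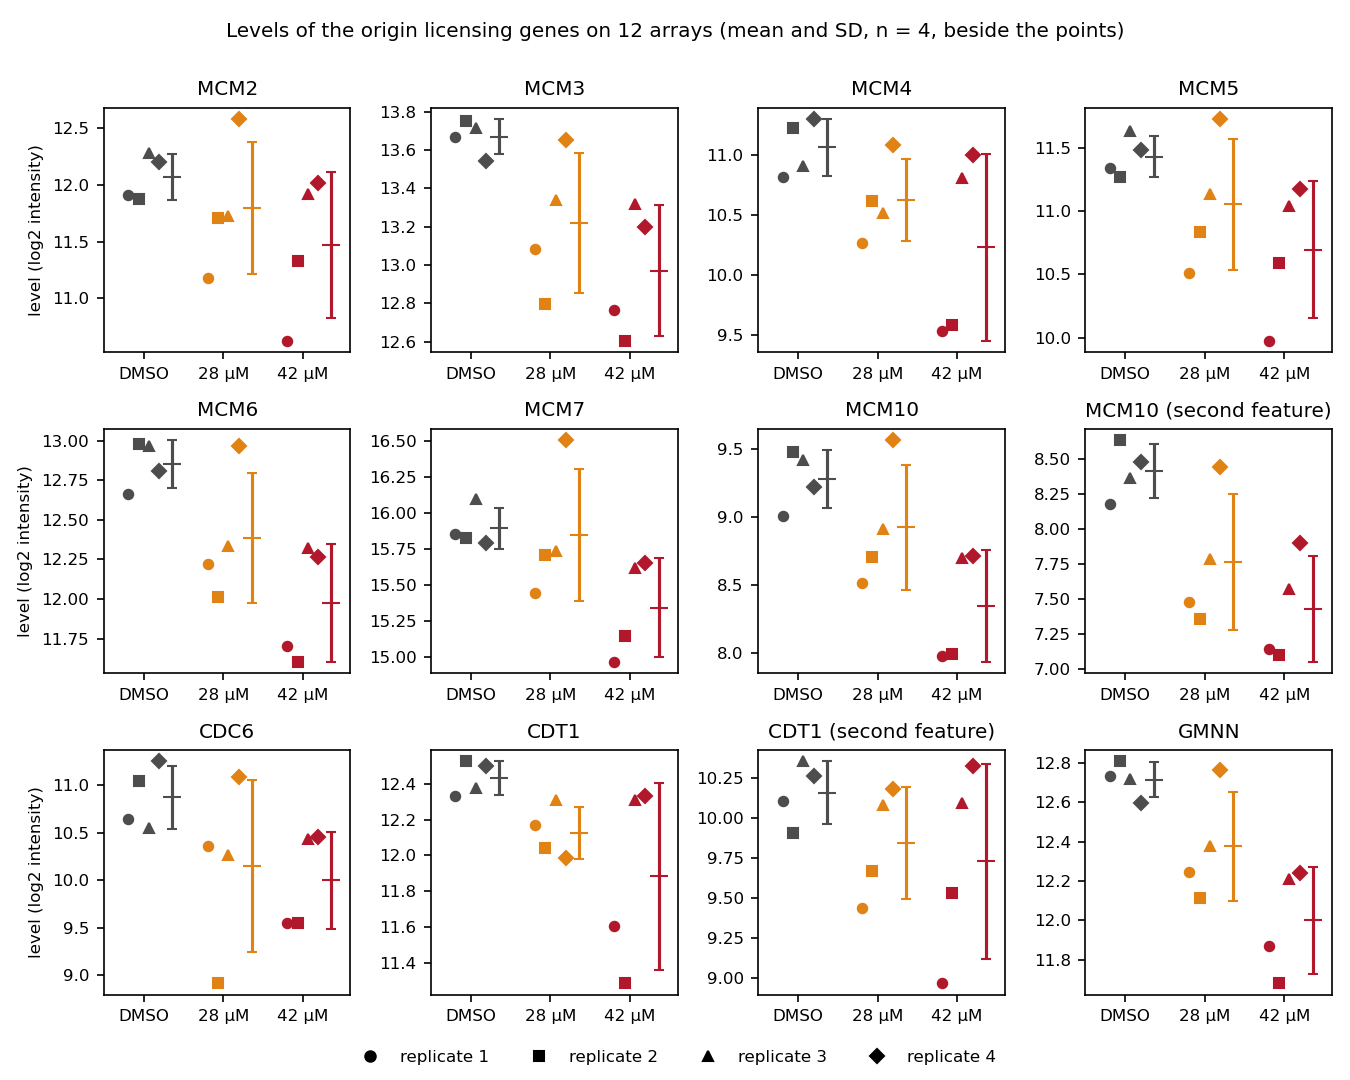
Level of each probe (log2 intensity, vertical axis) on the 4 arrays of DMSO, 28 µM and 42 µM SLMP53-2, with a marker shape for each replicate number and the mean with SD (n = 4) to the right of the points. Replicate 4 of 28 µM lies with the DMSO arrays for most genes, and replicates 1 and 2 of 42 µM are the lowest of their group in every panel.

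Among the helicase subunits, MCM6 was the one called. Its level was 12.66, 12.98, 12.97 and 12.81 on the 4 DMSO arrays, 12.22, 12.01, 12.33 and 12.97 at 28 µM and 11.70, 11.60, 12.32 and 12.26 at 42 µM. No array of the higher dose reached the DMSO range, and at the lower dose replicate 4 was inside it. The mean fell by 0.88 on the log2 scale at 42 µM (SE 0.21, adjusted p = 0.0409), to 54.3% of the DMSO level. The probe lies at chr2:136598217-136598276 on the minus strand of hg19, the build of the array's annotation.

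MCM3 had a similar pattern with an adjusted p above the limit. It stood at 13.67, 13.75, 13.72 and 13.54 on DMSO, at 13.08, 12.80, 13.34 and 13.66 at 28 µM and at 12.77, 12.60, 13.32 and 13.20 at 42 µM. The 42 µM arrays all lay below the DMSO arrays, by -0.70 in the mean (log2, SE 0.19, adjusted p = 0.0687).

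MCM4 and MCM5, 2 further subunits of the ring, differed from DMSO by -0.84 (log2, SE 0.31, adjusted p = 0.190) and -0.74 (SE 0.27, adjusted p = 0.189). MCM4 was 10.82, 11.23, 10.91 and 11.30 on DMSO, 10.27, 10.62, 10.51 and 11.09 at 28 µM and 9.53, 9.58, 10.81 and 10.999 at 42 µM, so that replicates 1 and 2 of the higher dose were over 1 unit below the lowest DMSO array and replicate 4 overlapped the DMSO range. For MCM5 the DMSO arrays gave 11.34, 11.27, 11.63 and 11.48, those of 28 µM 10.51, 10.83, 11.14 and 11.73, and those of 42 µM 9.97, 10.59, 11.04 and 11.17. All 4 arrays of 42 µM were below DMSO for MCM5, and its replicate 1 was the lowest of them. The MCM5 probe crosses an exon junction, as its 60 bases span 872 bases of hg19.

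MCM2 and MCM7 were at -0.59 (SE 0.31, adjusted p = 0.401) and -0.55 (SE 0.22, adjusted p = 0.221). The MCM2 levels were 11.91, 11.88, 12.28 and 12.20 on DMSO, 11.18, 11.71, 11.73 and 12.58 at 28 µM and 10.62, 11.33, 11.92 and 12.01 at 42 µM. At 42 µM only replicates 1 and 2 were below DMSO for MCM2, and the 28 µM replicate 4 was the highest of all 12 arrays. MCM7 gave 15.85, 15.82, 16.10 and 15.79 on DMSO, 15.44, 15.71, 15.73 and 16.51 at 28 µM and 14.96, 15.14, 15.61 and 15.65 at 42 µM. Every 42 µM array was below every DMSO array for MCM7, and replicate 4 of 28 µM was again the highest of the 12.

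MCM10, which acts when the loaded helicase is activated, was called by both of its probes. The brighter probe gave 9.01, 9.48, 9.42 and 9.22 on DMSO, 8.51, 8.70, 8.91 and 9.57 at 28 µM and 7.98, 7.99, 8.70 and 8.71 at 42 µM. The other gave 8.17, 8.64, 8.36 and 8.48, then 7.48, 7.36, 7.78 and 8.44, and then 7.14, 7.1, 7.57 and 7.90. For both probes the 42 µM arrays did not overlap DMSO, and over the 12 arrays the probes correlated with r = 0.944. MCM10 fell by 0.94 on the log2 scale by the first probe (SE 0.24, adjusted p = 0.0493), to 52.2% of the DMSO level, and by 0.99 by the second (SE 0.23, adjusted p = 0.0394). Under 25 alternative settings the first probe was called in 8 and the second in 14. The probes lie at chr10:13251346-13251405 and chr10:13251826-13251885 of hg19.

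Of the loading factors, CDC6 was at -0.88 relative to DMSO (log2, SE 0.38, adjusted p = 0.275) and CDT1 at -0.55 (SE 0.20, adjusted p = 0.190). CDC6 was 10.65, 11.05, 10.55 and 11.25 on DMSO, 10.36, 8.91, 10.27 and 11.08 at 28 µM and 9.55, 9.55, 10.43 and 10.45 at 42 µM. All 42 µM arrays were below DMSO, but the 28 µM replicate 2 was lower than any of them. That array gave CDC6 an SD of 0.90 at 28 µM, the widest of any licensing gene and dose.

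CDT1 gave 12.33, 12.53, 12.38 and 12.50 on DMSO, 12.17, 12.04, 12.31 and 11.99 at 28 µM and 11.60, 11.28, 12.31 and 12.33 at 42 µM by its brighter probe. Replicates 3 and 4 of 42 µM were at or next to the lowest DMSO array, and CDT1 was the 1 gene of the 10 whose 28 µM arrays all lay below DMSO, as did 2.93% of all genes. The dimmer probe, which crosses an exon junction, gave 10.11, 9.90, 10.35 and 10.26, then 9.44, 9.67, 10.08 and 10.18, and then 8.97, 9.53, 10.09 and 10.32. It overlapped DMSO at both doses and was at -0.43 relative to DMSO for 42 µM (SE 0.26, adjusted p = 0.493), and the 2 probes correlated with r = 0.695 over the 12 arrays. The 28 µM replicate 4 was the lowest array of its group for the first probe and the highest for the second.

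GMNN, whose product geminin inhibits CDT1, had the smallest adjusted p of the 10 genes. Its levels were 12.74, 12.81, 12.72 and 12.60 on DMSO, 12.25, 12.12, 12.38 and 12.76 at 28 µM and 11.87, 11.68, 12.21 and 12.24 at 42 µM. The 42 µM arrays lay below all DMSO arrays, and at 28 µM all but replicate 4 did. The gene fell by 0.72 on the log2 scale at 42 µM (SE 0.16, adjusted p = 0.0307), to 60.9% of the DMSO level. Its probe is at chr6:24786108-24786167 on the plus strand of hg19. The inhibitor changed in the same direction as the helicase genes that were called.

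**Figure D2:**
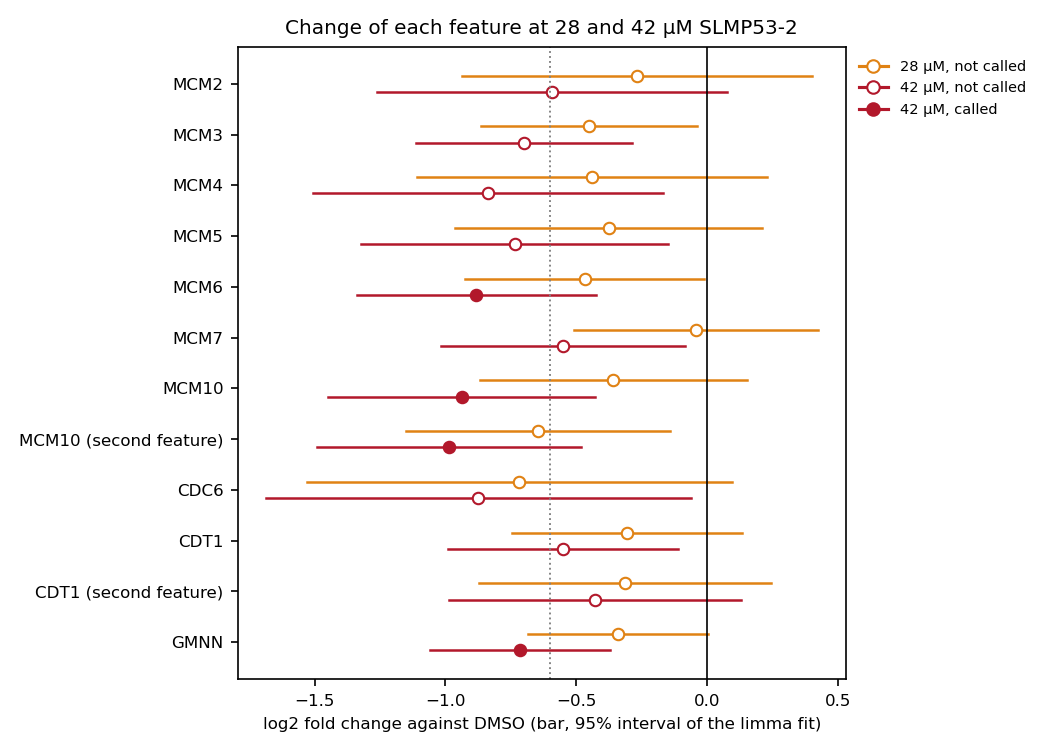
Log2 fold change of each probe against DMSO at 28 µM (orange) and 42 µM (red), with the 95% interval of the limma fit as a bar. The dotted line is the fold limit of -0.6, and filled points, which are MCM6, both MCM10 probes and GMNN at 42 µM, passed both limits.

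The 3 calls at 42 µM depended on single arrays, on how the slide was modelled and on the processing, as described at the end. Leaving out DMSO replicate 1, 2, 3 or 4, or 42 µM replicate 1 or 2, left 0 of the 10 genes called, and the share of all genes called lower was then 0.478%, 0%, 0.73%, 0.577%, 0.759% and 0% in that order. Without 28 µM replicate 3, which enters through the shared estimate of spread, 1 was called, GMNN, beside 1.1% of all genes. With the slide as a block MCM6 stood at -0.90 (adjusted p = 0.0976), MCM10 at -1.0 (0.0798) and GMNN at -0.71 (0.0978), so that 0 of 10 were called, beside 1 of all 24251 genes. With the slide as a random block, with an estimated correlation of 0.193 between arrays of a slide, 4 were called, MCM6, MCM10, GMNN and MCM3 (adjusted p = 0.0258, 0.0269, 0.0203 and 0.0499). No share of all genes was taken for the random block, so its count has no background beside it. The median over the 10 genes stayed between -0.85 and -0.61 when any 1 array was left out.

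At 28 µM the 10 means were again below DMSO and 0 passed the limits, as did 0% of all genes. The median log2 fold change was -0.37, from -0.72 for CDC6 (SE 0.38, adjusted p = 0.511) to -0.04 for MCM7 (SE 0.22, adjusted p = 0.956). MCM3, at -0.45, and MCM6, at -0.47, had unadjusted p-values below 0.05, of 0.0337 and 0.0441. Replicate 4 weighed on these values. Without it the median was -0.59, and 0 of the 10 were called by their brightest probe, while 0.986% of all genes were. The second MCM10 probe was then at -0.87 (SE 0.20, adjusted p = 0.0394).

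The difference between the doses was not resolved for any of these genes. From 28 to 42 µM the median log2 fold change was -0.37, from -0.58 for MCM10 to -0.16 for CDC6, with 0 of 10 called and 0% of all genes. The adjusted p was 0.9998 for every licensing gene, and MCM7 (-0.51), MCM10 (-0.58) and GMNN (-0.38) had unadjusted p-values of 0.0353, 0.0285 and 0.0341. For MCM6 the 95% interval of the difference ran from -0.87 to 0.04, and for CDC6 from -0.97 to 0.65. Without 28 µM replicate 4 the median became -0.23, and without 42 µM replicate 1 it became -0.17.

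Seen array by array, the licensing genes moved together. The median over the 10 genes of the difference from the DMSO mean was -0.13 to 0.09 on the DMSO arrays. At 28 µM it was -0.61, -0.59 and -0.34 on replicates 1 to 3 and 0.16 on replicate 4. At 42 µM it was -1.23 and -1.11 on replicates 1 and 2 and -0.37 and -0.34 on replicates 3 and 4, so that the last pair lay level with replicate 3 of the lower dose. The 45 pairs of licensing genes correlated over the 12 arrays with a median r of 0.845, from 0.563 for MCM7 with CDT1 to 0.978 for MCM6 with GMNN. After the group means were taken out the median was 0.791, and MCM2 with MCM5 had the highest r, 0.986. These are correlations across arrays that share their slides and their normalization.

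**Figure D3:**
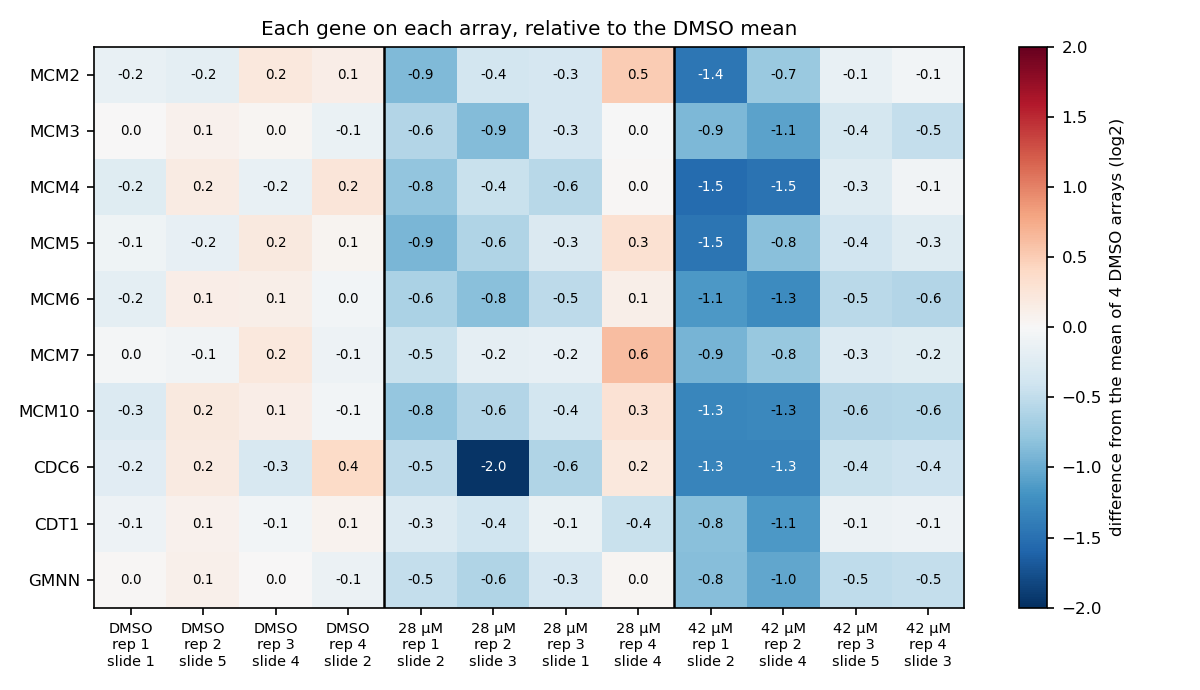
Difference of each licensing gene on each array from the mean of the 4 DMSO arrays (log2, colour and number), with the replicate and the slide under each column. On 28 µM replicate 4 the genes lie between -0.45 (CDT1) and 0.62 (MCM7), on 28 µM replicate 2 CDC6 lies far below the rest at -1.96, and 42 µM replicates 1 and 2 lie below the other arrays of that dose for every gene.

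Within slides, where a treated and a DMSO array lay on the same slide, the direction of the median at 42 µM was the same in all 3 pairs. On slides 2, 4 and 5 the 42 µM array was lower than the DMSO array by a median log2 difference of -1.17, -1.07 and -0.43 over the 10 genes, with 10, 10 and 9 genes lower. At 28 µM it was -0.25 on slide 1 and -0.64 on slide 2, with all 10 genes lower on each, and 0.12 on slide 4, which holds replicate 4, with 2 genes lower. Between the doses the median was -0.54 on slide 2, -1.31 on slide 4 and 0.30 on slide 3, where 1 of 10 genes was lower at 42 µM. Slide 4 held both 28 µM replicate 4, with the highest licensing levels of its group, and 42 µM replicate 2, with some of the lowest. The part of the slides and of the RNA extracts in these differences between replicates was not tested.

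The 38 other genes of licensing and firing were grouped by role in 4 lists. At 42 µM 11 of them were called lower, against 1.43% of all genes, and 0 were called higher. Their median log2 fold change was -0.51. In the origin recognition complex 0 of 7 genes were called. ORC1, the subunit whose protein level varies with the cell cycle, was at -1.01 (SE 0.35, adjusted p = 0.155), and ORC2 to ORC6 and the partner LRWD1 lay between -0.15 and 0.09. Of 5 relatives and partners of the MCM proteins 1 was called, MCM8, a helicase of DNA repair, which fell by 0.77 (SE 0.17, adjusted p = 0.0314). MCM8, ORC1, LRWD1 and COL1A2, and DBF4B and the reference genes named further on, are outside the rule for named genes and were chosen after their values were seen.

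The genes that turn the licensed ring into a fork were called lower in 6 of 14 cases, with a list median of -0.67. GINS2 and GINS1, of the complex that joins the ring, fell by 1.05 (SE 0.24, adjusted p = 0.0320) and 0.79 (SE 0.14, adjusted p = 0.0157). CDC45, their partner in the active helicase, fell by 0.97 (SE 0.24, adjusted p = 0.0447), from 13.47, 13.63, 13.56 and 13.44 on DMSO to 12.16, 12.13, 13.08 and 12.84. TICRR, which brings CDC45 to the origin, fell by 0.83 (SE 0.14, adjusted p = 0.0126), from 10.67, 10.84, 10.76 and 10.41 to 9.80, 9.59, 10.07 and 9.87. For each of these genes no 42 µM array reached the DMSO range, as in 7.01% of all genes. The same held for several genes of this list that were not called.

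Among the kinases and ubiquitin ligase components that time licensing, 4 of 12 were called lower, with a list median of -0.67. FBXO5, which encodes the APC/C inhibitor EMI1 and so keeps geminin from being degraded, fell by 1.39 (SE 0.23, adjusted p = 0.0131), from 10.35, 10.57, 9.98 and 10.08 on DMSO to 9.01, 8.22, 8.92 and 9.29. CCNA2, the S phase cyclin A, fell by 1.29 (SE 0.30, adjusted p = 0.0377), and CDK1, its kinase partner later in the cycle, by 1.23 (SE 0.22, adjusted p = 0.0154). CCNE1, the cyclin E of the G1 to S transition, fell by 0.86 (SE 0.20, adjusted p = 0.0399). All 42 µM arrays of these 4 genes lay below DMSO, against 7.01% of all genes, and so did those of several genes of this list that were not called. The highest value of the list was 0.26 and was not called.

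**Figure D4:**
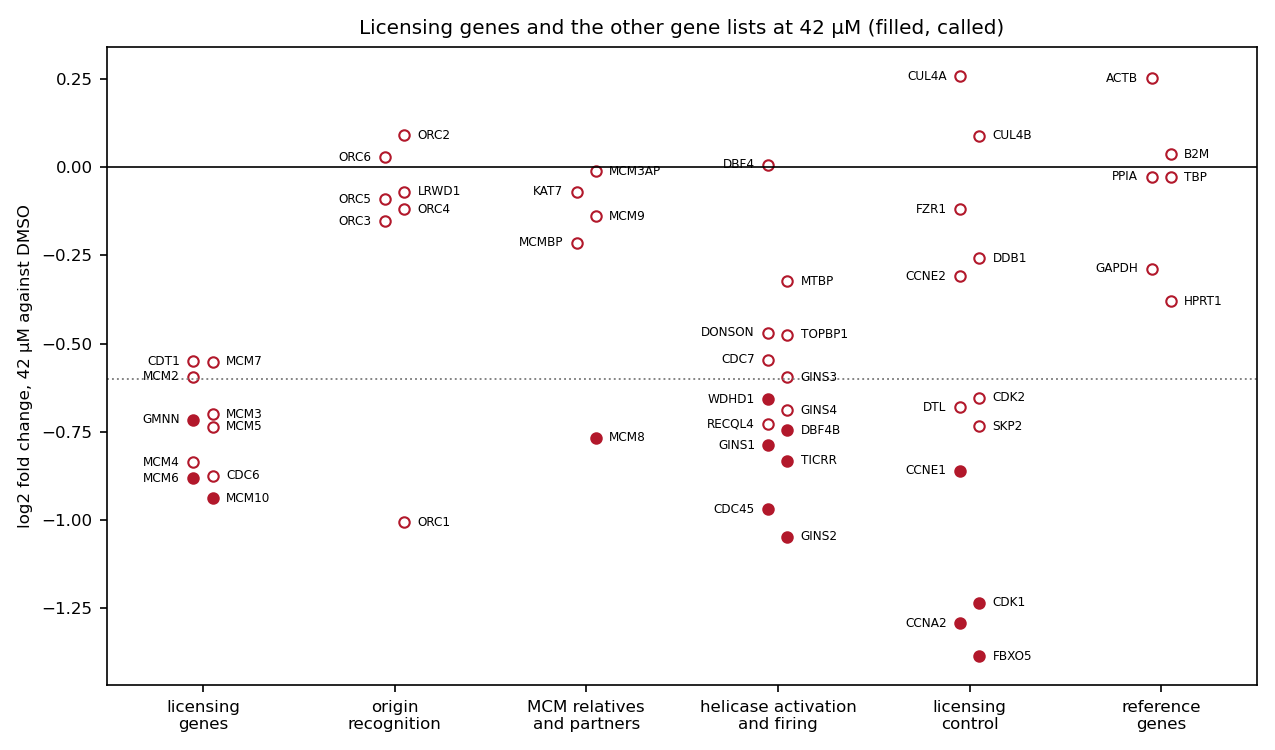
Log2 fold change at 42 µM against DMSO of the licensing genes, of 4 lists of related genes and of 6 reference genes, 1 point a gene, filled where both limits were passed. The origin recognition genes other than ORC1 lie between -0.15 and 0.09, the reference genes between -0.38 and 0.25, and the called genes lie in the other lists.

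These list counts moved with the arrays as the licensing genes did. Without DMSO replicate 2 or 42 µM replicate 2, 0 of the 38 were called. Without DMSO replicate 1, 3 or 4 or 42 µM replicate 1, 4 were called, without 28 µM replicate 3, 6 were, with the slide as a block 0 were, and with it as a random block 12 were. For the random block the share of all genes was not taken. At 28 µM 0 of the 38 were called, and without replicate 4 of that dose 4 were, FBXO5 (-1.12), CCNA2 (-1.03), CCNE1 (-0.82) and DBF4B (-0.73), a regulatory subunit of the CDC7 kinase. Over all genes the share called lower at 28 µM was 0% with that array and 0.986% without it. The 6 reference genes, which serve to normalize other assays, ranged from -0.38 for HPRT1 and -0.29 for GAPDH to 0.25 for ACTB at 42 µM, with a median of -0.03 and 0 called.

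The genes whose levels followed the licensing genes most closely over the 12 arrays were found by correlating 24199 other genes with the mean of the 10 standardised levels. The highest values of r were those of HAUS8 (0.985), a subunit of the augmin complex of the spindle, E2F1 (0.980), a transcription factor of the G1 to S transition, SPC24 (0.978), of the kinetochore, CHAF1B (0.977), of the chromatin assembly factor, and MSH6 (0.977), of mismatch repair. GINS2 (0.975), CDC45 (0.972), ASPM (0.971), of the spindle pole, GBA3 (0.971), a cytosolic glucosidase of liver, and DKK1 (0.970), a secreted inhibitor of WNT signalling, followed. Of these 10, the 6 called lower at 42 µM were CHAF1B, GINS2, CDC45, ASPM, GBA3 and DKK1, against 1.43% of all genes. Their log2 fold changes ran from -2.0 for DKK1 to -0.81 for CHAF1B. The 10 were picked by likeness to genes that were lower at 42 µM, so this count is not a separate result. The median r over all genes was 0.05, and 175 genes had an r over 0.9. The points share the treatment groups and the slides, and the values describe likeness over these arrays.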

How the data were processed

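RNA of HuH-7 cells (DMSO, 28 µM and 42 µM SLMP53-2, 4 arrays each) was hybridized to 1-colour arrays. The authors deposited the scanner output of Agilent Feature Extraction (version 10.7.3.1 in the submitters' processing notes), with the mean intensity and local background intensity of each spot, and a table of log2 values that the authors had background-corrected by the Edwards method and quantile normalized. The members and gene lists were chosen with earlier results of these data known.

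Intensities were read in R 4.3.3 with version 1.17.8 of data.table, control and outlier spots were left out, and Edwards correction and quantile normalization were run in limma 3.58.1, spots of a probe being averaged on the log2 scale. Array by array these values correlated with the deposited log2 values with r above 0.999. Kept were probes that were well above background on 2 or more of a condition's 4 arrays, namely 33467 probes of 24251 genes. One limma model (lmFit, eBayes) covered the 12 arrays and their 3 groups, with two-sided tests and Benjamini-Hochberg adjustment over all probes. Where a gene had several probes, the one with the highest mean over the 12 arrays stood for it. Quantile normalization sets every array to the same distribution, so that changes are relative to the other RNAs of the array. The number of arrays limits the precision. In data simulated for 42 µM against DMSO, a log2 shift of 1.5 was found for 187 of the 200 probes that carried it, among 33401, with 12 false calls. That shift is larger than the members' changes at 42 µM, -0.94 to -0.55 by their brightest probes. The simulated noise was also independent between probes and arrays. The simulation therefore gives no recovery rate for changes of the members' size. No difference between the doses was simulated, so it gives none for 42 against 28 µM either.

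Named are all members, of the other licensing and firing genes the up to 8 of largest change called at 42 µM and those called higher, and the 10 genes of highest correlation with the members. Alternatives were other background corrections and normalizations, filters, blocks, fold limits and rules for several probes, and each array left out in turn. The same alternatives for the other licensing genes were added after the data were seen. RefSeq promoters were searched with Python 3.11.15, and plots were drawn with matplotlib 3.10.9. The study's qPCR and protein data were not used here.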

Additional observations from a re-analysis of the deposited data

How the results depend on the processing

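The median log2 fold change of the 10 licensing genes was moved by 16 of 26 alternatives at 42 µM, by 17 at 28 µM and by 16 from 28 to 42 µM, and the others, such as a filter or a block balanced over the groups, left it as it was. It lay between -0.92 and -0.61 at 42 µM, between -0.59 and -0.30 at 28 µM and between -0.51 and -0.17 from 28 to 42 µM. The number of them called lower at 42 µM, 3 as reported, was 0 with the processed signal and quantile normalization (0.73% of all genes called lower), 1 with the processed signal scaled to the 75th percentile, 0 under the slide block, 4 with the slide as a random block and 0 with a log2 limit of 1, and it ranged from 0 to 4 when single arrays were left out. The number was 2, MCM6 and GMNN, with the authors' normalized values, with normexp background correction, without a filter or with an intensity trend in limma. With the replicate number as a block 5 were called, and 2.01% of all genes. Besides the main model, shares of all genes were taken only for the slide and replicate blocks, quantile-normalized processed signal and arrays left out. Whether replicate numbers pair the arrays was not settled. Of 12 pairs with the same number, 5 had a correlation of deviations at or below 0.1 (median 0.22, from -0.46 to 0.62). Of 36 pairs with different numbers, 25 did (median -0.07, from -0.59 to 0.57). The pair at 0.62, replicate 1 of 28 µM with replicate 1 of 42 µM, also shared a slide. For the 9 pairs on the same slide the median was 0.26, and for the 39 on different slides it was -0.05. Of the 12 arrays, 5 correlated best with one of their own number. At 28 µM and between the doses 0 of the 10 were called under all 29 alternatives.

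Of the 38 other licensing and firing genes, 11 as reported, 4 were called at 42 µM with the processed signal and quantile normalization, 4 with a log2 limit of 1, 0 under the slide block, and 0 to 14 when single arrays were left out. At 28 µM it was 0 to 4 with single arrays left out. Of 300 values of single probes for 42 µM against DMSO, 246 stayed on their side of the limits, 46 lost a call and 8 gained one, and 0 reversed. The reversed values of the other comparisons were small. For CDC6 from 28 to 42 µM the value was 0.022 with array weights, and it ranged from -0.57 to 0.15 with single arrays left out, being positive without 28 µM replicate 4. For the second CDT1 probe between the doses that range was -0.31 to 0.14, positive without 42 µM replicate 1. For MCM7 at 28 µM it was -0.26 to 0.092, positive without DMSO replicate 3, 28 µM replicate 1 or 28 µM replicate 2. The causes were not tested.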
